A study of Mus musculus with 6 samples.

Results

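The data set holds the RNA levels of 9 chemokine receptors in regulatory T cells (Tregs) that lost Zfp335, a zinc finger transcription regulator, and in control Tregs. The receptors are Cxcr3, Cxcr4, Cxcr5, Cxcr6, Ccr2, Ccr4, Ccr6, Ccr8 and Ccr9. They were picked by symbol, leaving out Ccr7, from a table of read counts with 32285 rows, and all 9 passed the filter on low counts. Splenic cells were sorted on CD4 and CD25 from C57BL/6 mice and sequenced in bulk, with 3 libraries per group. KO libraries came from ERCre Zfp335 fl/fl mice. The WT animals are named as wild-type littermates in the labels and as ERCre mice in the study's text, so it is not settled whether the controls carried Cre. Per the study's methods, mice 6 weeks old were injected with tamoxifen at 10 mg/mL on days 1, 3 and 5, both groups alike, and cells were taken on day 7. ERCre is a fusion of Cre with part of the estrogen receptor that tamoxifen switches on. It is not restricted to Tregs, so other cells of the KO mice could lose Zfp335 as well. The labels do not say that the libraries came from separate mice, so p values here measure the spread between these libraries.

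Chemokines are small secreted proteins that form gradients in tissues, and their receptors are membrane proteins that signal through inhibitory G proteins to steer a moving cell. Each receptor binds its own set of chemokines, so the set of receptors on a Treg sets which tissues and which zones of a lymphoid organ it can enter. Tregs that recirculate through lymphoid organs are known for CCR7, and Tregs that enter skin, gut or inflamed tissue are known for receptors such as CCR4, CCR8, CCR6, CCR9, CXCR3, CXCR6 and CCR2.

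The libraries held 133283969 to 209041812 counts. Levels are given as CPM, a gene's count after scaling for library size by edgeR's TMM method. Zfp335 fell from 120.1 ± 4.67 to 14.8 ± 0.451 CPM (SD, n = 3 each). The log2 fold change of Zfp335 was -3.02 (adjusted p = 1.2e-13, edgeR's quasi-likelihood test, which gives every adjusted p below unless another is named). The summed level of 8 T cell and Treg markers was 3925 to 3995 CPM in WT and 3976 to 4042 CPM in KO, but its members moved apart. Ctla4 rose from 410.3 ± 9.03 to 645 ± 8.93 CPM (adjusted p = 9.56e-09), and Foxp3 (from 1136 ± 17.4 to 1052 ± 9.24 CPM, adjusted p = 0.0163), Il2ra (from 480 ± 16.0 to 433 ± 6.0 CPM, adjusted p = 0.00658) and Cd3g (from 340 ± 17.5 to 313 ± 4.54 CPM, adjusted p = 0.0401) fell (SD, n = 3 each). For 6 of the 8 markers every KO library was below every WT library, against 19.1% of all genes. The libraries also differed in RNA of other cells, and most of these values are given beside receptors that such cells also carry. The 7 red cell markers summed to 37.3 to 44.2 CPM in WT and 2.15 to 2.93 CPM in KO. Xist, the RNA of the inactive X chromosome, went from 0.272 ± 0.132 to 134.6 ± 10.4 CPM (SD, n = 3 each). The Y chromosome genes Ddx3y, Kdm5d and Uty were counted in all libraries and fell, Ddx3y from 103 ± 3.88 to 78.7 ± 1.81 CPM (adjusted p = 9.96e-06), Kdm5d from 43.5 ± 1.19 to 36.0 ± 0.922 CPM and Uty from 17.4 ± 0.248 to 11.9 ± 0.350 CPM (SD, n = 3 each). The sex of these mice is not given in the sources used here, and a difference in sex between the groups cannot be told apart from the loss of Zfp335 in any receptor value below.

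Of the 9 receptors, 7 differed between the groups at an adjusted p under 0.05, against 24.1% of the 17307 genes tested. Cxcr4, Ccr8 and Ccr9 rose in KO (3 of 9, against 12.0% of all genes), and Cxcr3, Cxcr6, Ccr2 and Ccr4 fell (4 of 9, against 12.1%). Cxcr5 and Ccr6 did not pass the test. The average log2 CPM was 1 or more for all 9 receptors, and 31.8% of the 11076 genes of that level differed. With the study's own cutoffs (a 1.5-fold change, a P below 0.05 and an adjusted P below 0.1) 3 receptors remained, against 6.95% of all genes. Ccr8 was higher by these cutoffs (1 of 9, against 2.58%), and Ccr2 and Ccr4 were lower (2 of 9, against 4.37%). The KO libraries lay wholly outside the WT libraries for 7 of 9 receptors, against 38.3% of all genes. For each of these 7 the exact two-sided permutation test on log2(CPM + 1) gave p = 0.1, the smallest value that 3 against 3 libraries allow.

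**Figure D1:**
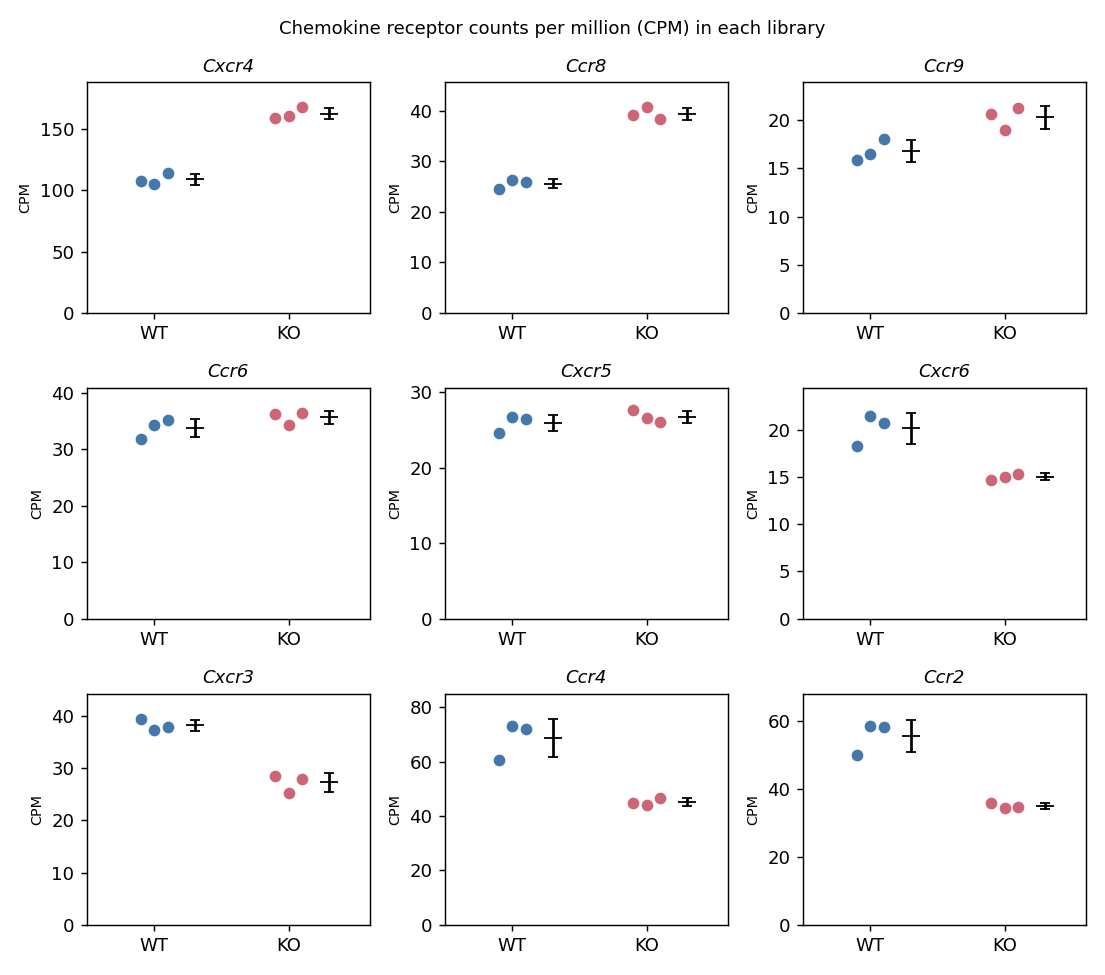
CPM of each of the 9 chemokine receptors in the 3 WT (blue) and 3 KO (red) libraries, on linear axes that start at 0, with black marks for the mean and bars for the SD. The KO points of Cxcr4, Ccr8 and Ccr9 lie above the WT points, those of Cxcr6, Cxcr3, Ccr4 and Ccr2 lie below them, and the points of Ccr6 and Cxcr5 overlap.

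Cxcr4, the receptor for CXCL12, which holds cells in bone marrow and in parts of lymphoid tissue, was the receptor with the highest level per length. It was at 107, 105 and 114 CPM in WT replicates 1, 2 and 3 and at 159, 161 and 168 CPM in KO replicates 1, 2 and 3. Every KO library was above every WT library. The mean rose from 109 ± 4.41 CPM to 162 ± 4.69 CPM (SD, n = 3 each), a log2 fold change of 0.58 (SE 0.039, adjusted p = 1.97e-07) or 1.49-fold, just short of the study's 1.5-fold cutoff. Cxcr4 lies at chr1:128588199-128592293 (minus strand, GRCm38, GENCODE release M21), and no stretch of 50 bases of its transcript was found in a transcript of another gene. B cells, monocytes and neutrophils also carry CXCR4. The 10 B cell markers summed to 72.4 to 79.0 CPM in WT and 32.4 to 33.9 CPM in KO, the 10 neutrophil markers to 20.0 to 27.1 and 1.35 to 2.11 CPM, and the 8 monocyte and macrophage markers to 52.8 to 57.6 and 36.7 to 38.4 CPM, with Csf1r at 8.80 and 10.3 CPM. The part of such cells in the Cxcr4 result was not tested.

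The sequences before the start sites of Cxcr4 and Ccr8, the receptors with the largest rises, and of Ccr4 and Cxcr6, which fell, are shown as examples of receptors that moved in opposite directions. Each line gives the 250 bases upstream of the RefSeq start site (GRCm38.p6), read 5′ to 3′ on the gene's strand. Capitals mark matches, on either strand, to GGAAA (the core that NFAT proteins bind), CACCC (bound by KLF proteins), GGGCGG (the GC box), TGANTCA (the AP-1 sequence) or TATAAA (the TATA box).
Cxcr4: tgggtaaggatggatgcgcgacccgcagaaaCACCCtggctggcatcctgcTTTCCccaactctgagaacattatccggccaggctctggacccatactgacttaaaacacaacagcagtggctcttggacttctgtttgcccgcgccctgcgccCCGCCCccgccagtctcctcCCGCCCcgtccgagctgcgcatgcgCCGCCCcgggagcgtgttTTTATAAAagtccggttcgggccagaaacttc
Ccr8: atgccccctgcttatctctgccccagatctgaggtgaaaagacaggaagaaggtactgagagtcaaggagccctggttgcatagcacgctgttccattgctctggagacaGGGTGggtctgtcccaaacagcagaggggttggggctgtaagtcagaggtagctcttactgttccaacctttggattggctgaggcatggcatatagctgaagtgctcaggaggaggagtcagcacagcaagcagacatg
Ccr4: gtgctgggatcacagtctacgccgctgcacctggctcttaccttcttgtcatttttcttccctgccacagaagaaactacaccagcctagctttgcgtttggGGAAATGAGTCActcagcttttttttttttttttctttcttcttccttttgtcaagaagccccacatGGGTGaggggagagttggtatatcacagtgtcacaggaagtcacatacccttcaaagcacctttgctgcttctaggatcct
Cxcr6: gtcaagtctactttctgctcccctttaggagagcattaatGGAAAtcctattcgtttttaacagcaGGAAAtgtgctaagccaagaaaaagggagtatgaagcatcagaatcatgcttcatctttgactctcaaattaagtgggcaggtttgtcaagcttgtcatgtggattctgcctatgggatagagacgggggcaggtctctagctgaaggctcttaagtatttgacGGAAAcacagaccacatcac

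The stretch of Cxcr4 is chr1:128592300-128592549 (minus strand), that of Ccr8 is chr9:120091883-120092132 (plus), that of Ccr4 is chr9:114496545-114496794 (minus) and that of Cxcr6 is chr9:123806227-123806476 (plus). The Ccr4 stretch is upstream of the RefSeq start only, and lies inside the Ccr4 gene as GENCODE places it (chr9:114490316-114504916). The Cxcr4 stretch was 61.2% G and C and held 19 CpG dinucleotides, against medians of 52.4% and 6 over 32851 promoters. It held 3 matches to GGGCGG at -95, -75 and -50 from the start, and a pair of overlapping matches to TATAAA at -32 and -30. GGGCGG occurred in 32.7% of all promoters and TATAAA in 12.4%. The Ccr8 stretch was 53.6% G and C with 1 CpG, and its only match was CACCC at -140, a sequence in 52.0% of promoters. In the Ccr4 stretch a GGAAA at -148 adjoined a TGANTCA at -143, and a CACCC followed at -81. TGANTCA occurred in 6.7% of promoters and GGAAA in 55.6%. The Cxcr6 stretch held GGAAA at -210, -184 and -20. Of the receptors that fell, Ccr4, Cxcr6 and Ccr2 (not shown, 3 matches) held GGAAA, and Cxcr3 held no match to any of the motifs. Of the 250 Ccr2 bases, 233 lie in annotated exons. GGAAA was also present in Cxcr4, which rose, at -199. Ccr6, which did not pass the test, held it in both of its RefSeq stretches, at -121 and -186. Ccr9, which rose, held 1 match to CACCC. TGACGTCA (the cAMP response element), GTAAACA (a forkhead sequence) and GGTGTGA (a T-box sequence) were also searched and had no match in the 250 bases of any of the 8 receptors with a RefSeq promoter. These matches are descriptions of letters and not binding sites.

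Ccr8 and Ccr4 are the receptors most tied to Tregs of skin and other barrier tissue, with CCL1 and CCL8 as ligands of CCR8 and CCL17 and CCL22 as ligands of CCR4, and they moved in opposite directions. Ccr8 was at 24.5, 26.3 and 25.8 CPM in WT replicates 1 to 3 and at 39.0, 40.6 and 38.3 CPM in KO replicates 1 to 3, without overlap. The mean rose from 25.6 ± 0.920 to 39.3 ± 1.22 CPM (SD, n = 3 each), with a log2 fold change of 0.62 (SE 0.047, adjusted p = 7.20e-07), the largest rise among the 9. Ccr8 lies at chr9:120092114-120094906 (plus strand). Ccr4 was at 60.5, 72.9 and 72.1 CPM in WT replicates 1 to 3 and at 44.7, 44.1 and 46.6 CPM in KO replicates 1 to 3. WT replicate 1 was lower than the other WT libraries but still above the KO libraries, which lay close together. The mean of Ccr4 fell from 68.5 ± 6.97 to 45.1 ± 1.31 CPM (SD, n = 3 each), with a log2 fold change of -0.60 (SE 0.064, adjusted p = 2.78e-05). Without WT replicate 1 the log2 fold change was -0.69. Ccr4 lies at chr9:114490316-114504916 (minus strand). Ccr10, the receptor for CCL27 and CCL28 on skin-homing T cells, also fell, and went from 13.0 ± 0.914 to 6.89 ± 0.299 CPM (SD, n = 3 each, log2 fold change -0.92, adjusted p = 1.12e-06). Ccr10 overlaps Cntnap1, a gene of the other strand, with no shared exon. Cntnap1 had a log2 fold change of -0.72 (whether counting used strand is not given in the sources used here). Fut7 and Gcnt1, enzymes that build the sugars by which selectins hold a T cell, fell by 0.53 and 0.49 on the log2 scale (adjusted p = 0.000291 and 2.77e-05).

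Cxcr3, Cxcr6 and Ccr2 guide T cells and monocytes into inflamed tissue, and all of them fell. Cxcr3 binds CXCL9, CXCL10 and CXCL11, which interferon induces, and marks Tregs that share features with Th1 cells. It was at 39.5, 37.4 and 37.9 CPM in WT replicates 1 to 3 and at 28.5, 25.3 and 28.0 CPM in KO replicates 1 to 3, with the groups well apart. The mean fell from 38.3 ± 1.08 to 27.3 ± 1.74 CPM (SD, n = 3 each, log2 fold change -0.49, SE 0.052, adjusted p = 1.71e-05). Tbx21, the Th1 regulator that acts on Cxcr3, was at 11.0 ± 0.125 and 10.2 ± 1.11 CPM and did not pass the test (adjusted p = 0.398). Cxcr3 is the only receptor of the 9 on the X chromosome (chrX:101731535-101734269, minus strand). The 485 tested genes of the X chromosome had a median log2 fold change of -0.021, with 51 higher and 59 lower. The 16577 autosomal genes had a median of -0.0039, with 2019 higher and 2013 lower. CD8 T and NK cells carry CXCR3 as well, and their 6 markers summed to 27.4 to 28.6 CPM in WT and 24.2 to 26.1 CPM in KO. Eomes was the only marker of the 6 that fell, against 12.1% of all genes. The part of the Xist difference and of such cells in the Cxcr3 result was not tested.

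Cxcr6 binds CXCL16 and keeps T cells in tissues such as liver and lung. It was at 18.3, 21.5 and 20.7 CPM in WT replicates 1 to 3 and at 14.6, 15.0 and 15.4 CPM in KO replicates 1 to 3, and again WT replicate 1 was the lowest WT library. The mean fell from 20.2 ± 1.64 to 15.0 ± 0.358 CPM (SD, n = 3 each, log2 fold change -0.42, SE 0.065, adjusted p = 0.000356). Cxcr6 lies at chr9:123806475-123811760 (plus strand) inside Fyco1, a gene of the other strand, with no shared exon. Fyco1 went from 59.5 ± 1.38 to 52.8 ± 4.35 CPM (SD, n = 3 each, log2 fold change -0.17, adjusted p = 0.0313).

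Ccr2 binds CCL2, draws monocytes out of the bone marrow and also guides activated T cells. It had the largest fall of the 9. The level was 50.1, 58.5 and 58.4 CPM in WT replicates 1 to 3 and 36.0, 34.4 and 34.7 CPM in KO replicates 1 to 3. The KO libraries were nearly equal, and even the low WT replicate 1 was above them. The mean fell from 55.7 ± 4.85 to 35.1 ± 0.829 CPM (SD, n = 3 each, log2 fold change -0.67, SE 0.058, adjusted p = 2.38e-06), and without WT replicate 1 the log2 fold change was -0.74. Ccr2 lies at chr9:124101950-124113557 on the plus strand, and 1.91% of its 50-base stretches occur in other genes. The 8 monocyte and macrophage markers summed to 52.8 to 57.6 CPM in WT and 36.7 to 38.4 CPM in KO. Of these markers 4 fell (against 12.1% of all genes), among them Lyz2 from 19.7 ± 1.78 to 7.36 ± 0.848 CPM. Csf1r, the defining receptor of that lineage, was at 8.80 ± 1.02 and 10.3 ± 0.596 CPM (SD, n = 3 each, adjusted p = 0.0821). The part of monocyte RNA in the Ccr2 result was not tested, and in bulk libraries fewer cells of a type and less RNA per cell cannot be told apart.

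Cxcr5, the receptor for CXCL13 that leads T and B cells into follicles, was at 24.6, 26.7 and 26.4 CPM in WT replicates 1 to 3 and at 27.6, 26.6 and 26.0 CPM in KO replicates 1 to 3. The groups overlapped. The means were 25.9 ± 1.11 and 26.7 ± 0.781 CPM (SD, n = 3 each), and the log2 fold change was 0.046 (95% interval -0.062 to 0.15, adjusted p = 0.562). B cells express Cxcr5 strongly, and all 10 B cell markers fell (against 12.1% of all genes), among them Pax5 from 6.98 ± 0.130 to 1.83 ± 0.479 CPM (SD, n = 3 each). How this bears on the value of Cxcr5 was not tested. Cxcr5 lies at chr9:44511787-44561877 (minus strand), and an exon of it overlaps Bcl9l on the other strand, which was at 273 ± 12.0 and 290.3 ± 1.33 CPM (SD, n = 3 each). Among 6 follicular T cell genes, Bcl6, Il21 and Tox2 rose with log2 fold changes of 0.34, 0.41 and 0.40, and Pdcd1 fell by 0.22. This is a share of 66.7%, beside 24.1% over all genes and 31.8% over those with an average log2 CPM of 1 or more.

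Ccr6 and Ccr9 are receptors of the gut and other mucosa. Ccr6 binds CCL20 and is shared by Th17 cells, Tregs and B cells. It was at 31.9, 34.3 and 35.2 CPM in WT replicates 1 to 3 and at 36.3, 34.3 and 36.4 CPM in KO replicates 1 to 3, with overlap between the groups. Mean levels were 33.8 ± 1.66 and 35.7 ± 1.20 CPM (SD, n = 3 each), with a log2 fold change of 0.080 (95% interval -0.026 to 0.19, adjusted p = 0.275). Ccr6 lies at chr17:8236043-8257141 (plus strand). The fall of the B cell markers stands beside this value too, and its part was not tested.

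Ccr9 binds CCL25 and brings T cells to the small intestine. It was at 15.8, 16.5 and 18.1 CPM in WT replicates 1 to 3 and at 20.6, 19.0 and 21.3 CPM in KO replicates 1 to 3. The lowest KO library was only slightly above the highest WT library. The mean rose from 16.8 ± 1.16 to 20.3 ± 1.17 CPM (SD, n = 3 each, log2 fold change 0.28, SE 0.064, adjusted p = 0.00675), the smallest change among the 7. Plasmacytoid dendritic cells carry CCR9, and their marker Siglech went from 2.76 ± 0.362 to 1.38 ± 0.214 CPM (SD, n = 3 each). The 8 dendritic cell markers summed to 9.92 to 10.9 CPM in WT and 6.15 to 6.75 CPM in KO. The part of such cells in the Ccr9 result was not tested. Ccr9 spans chr9:123678439-123784330 (plus strand), and 20.1% of its 50-base stretches occur in other genes, chiefly AC165425.1, which overlaps it. Lztfl1, which lies inside the annotated Ccr9 locus on the other strand, was at 14.4 ± 0.628 and 14.7 ± 0.345 CPM (SD, n = 3 each).

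**Figure D2:**
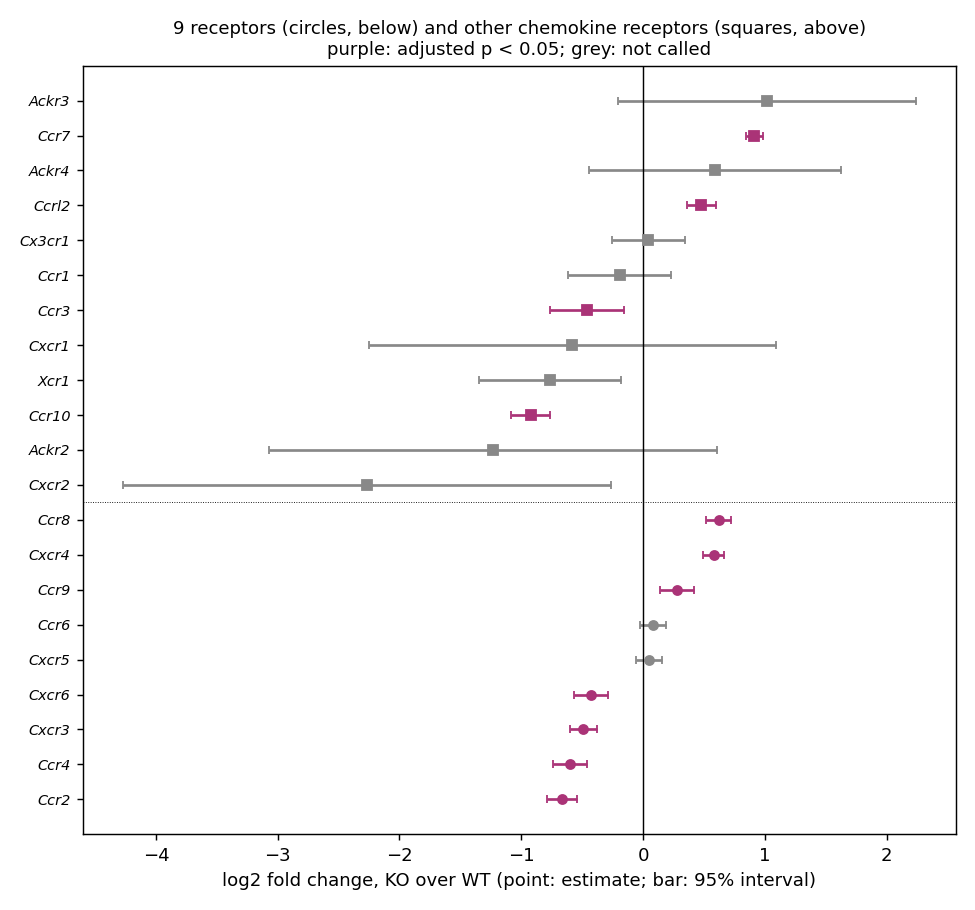
Log2 fold change, KO over WT, of the 9 receptors (circles, lower part) and of other chemokine receptors tested (squares, upper part), with bars for the 95% interval; purple marks an adjusted p under 0.05. Ccr8, Cxcr4 and Ccr9 lie right of 0 and Cxcr6, Cxcr3, Ccr4 and Ccr2 left of it, while the intervals of Ccr6 and Cxcr5 include 0.

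Levels of different receptors were compared as CPM per kb of annotated exons. In WT the order was Cxcr4 at 60.2 ± 2.44 CPM per kb (SD, n = 3), Ccr4 at 22.2 ± 2.25, Cxcr3 at 22.1 ± 0.627, Ccr8 at 21.8 ± 0.783, Ccr6 at 14.6 ± 0.716, Cxcr6 at 10.4 ± 0.850, Ccr2 at 8.24 ± 0.718, Cxcr5 at 7.77 ± 0.334 and Ccr9 at 1.64 ± 0.113 CPM per kb. Ccr4 and Cxcr3 overlapped over their WT libraries, as did Cxcr3 and Ccr8, and Ccr2 and Cxcr5. In KO, Cxcr4 was at 89.9 ± 2.59 CPM per kb and Ccr8 came next at 33.5 ± 1.04, followed by Cxcr3 at 15.8 ± 1.0, Ccr6 at 15.4 ± 0.519, Ccr4 at 14.6 ± 0.423, Cxcr5 at 8.03 ± 0.234, Cxcr6 at 7.78 ± 0.185, Ccr2 at 5.19 ± 0.123 and Ccr9 at 1.98 ± 0.114 (SD, n = 3). Cxcr3 and Ccr6, Ccr6 and Ccr4, and Cxcr5 and Cxcr6 overlapped in KO. With the longest transcript as length, Ccr6 at 20.3, Ccr4 at 16.1 and Cxcr3 at 15.8 CPM per kb changed places in KO. Ccr8 thus overlapped Ccr4 and Cxcr3 in WT and was above both in all KO libraries. The length of Ccr9 is uncertain, at 10.26 kb over all exons and 5.197 kb for its longest transcript, and it was ranked last with either. The summed level of the 9 was 162 to 174 CPM per kb in WT and 189.8 to 195 in KO, without overlap. Of this sum, Cxcr4 made up 35.7% ± 1.25 in WT and 46.8% ± 0.736 in KO (SD, n = 3 each), and Ccr8 12.9% ± 0.290 and 17.4% ± 0.777. Ccr4 made up 13.1% ± 0.945 and 7.60% ± 0.105, Cxcr3 13.1% ± 0.820 and 8.21% ± 0.471, and Ccr2 4.87% ± 0.275 and 2.70% ± 0.0809. The plain CPM sum of the 9 overlapped between the groups, at 373 to 409 in WT and 400.04 to 414 in KO.

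**Figure D3:**
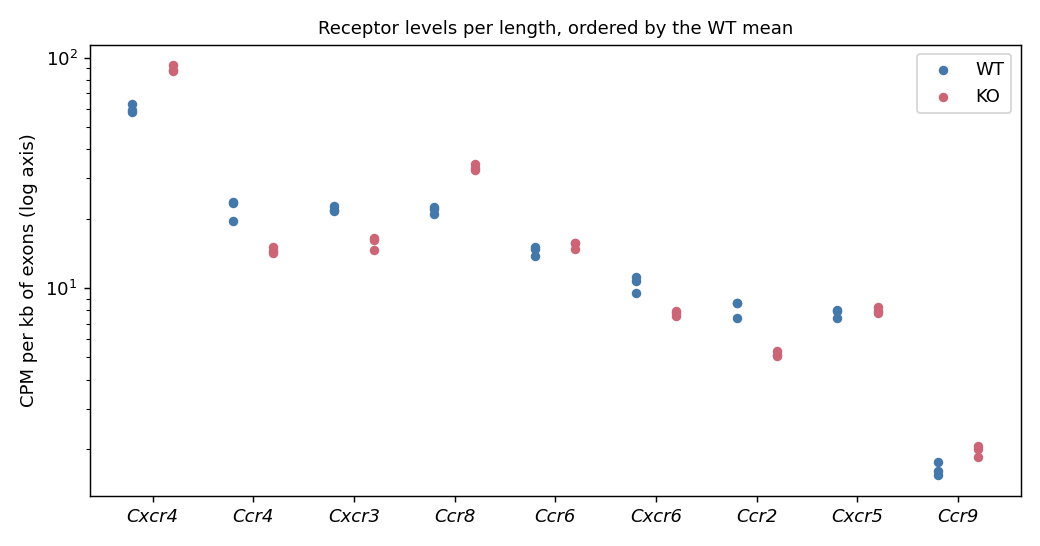
CPM per kb of exons of the 9 receptors in each WT (blue) and KO (red) library, on a log axis, in the order of the WT mean. Cxcr4 is highest in both groups, Ccr8 takes second place in KO with 33.5 CPM per kb, and Ccr9 is lowest.

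Of the 9 receptor genes, 6 lie on chromosome 9. Ccr9, Cxcr6 and Ccr2 belong to a cluster of chemokine receptor genes there, and the stretch of 435.1 kb from Ccr9 to Ccr2 holds 7 of them. Of the 6 tested, Ccr9 rose, and Cxcr6, Ccr2 and Ccr3 fell. Ccr3, the eotaxin receptor, went from 3.51 ± 0.481 to 2.53 ± 0.407 CPM (SD, n = 3 each, log2 fold change -0.46, adjusted p = 0.0315), with overlapping libraries. The values of Ccr1 (log2 fold change -0.19) and Xcr1 (-0.77, adjusted p = 0.0562) did not pass the test. Neighbouring receptor genes thus did not share 1 direction.

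**Figure D4:**
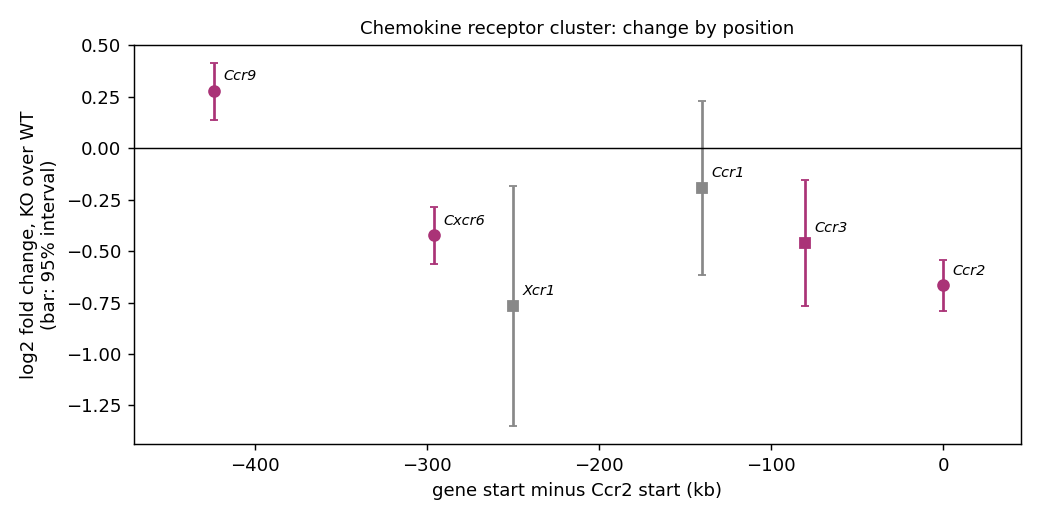
Log2 fold change, KO over WT, of the 6 tested chemokine receptor genes from Ccr9 to Ccr2 (circles for Ccr9, Cxcr6 and Ccr2, squares for the others) against the distance of each gene's start from that of Ccr2, with bars for the 95% interval; purple marks an adjusted p under 0.05. Ccr9 lies above 0 and the other 5 below it, of which Cxcr6, Ccr3 and Ccr2 passed the test.

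Among the other classical chemokine receptors, 9 were tested, 1 rose and 2 fell, a share of 33.3% beside 24.1% over all genes. Ccr7, which leads naive and resting T cells into lymph nodes and T zones, rose from 314 ± 6.06 to 592 ± 11.5 CPM (SD, n = 3 each, log2 fold change 0.91, adjusted p = 5.24e-10), and Ccr10 and Ccr3 fell. Cxcr2 was at 0.143 ± 0.0385 and 0.0318 ± 0.0550 CPM (SD, n = 3 each, adjusted p = 0.0981), Cxcr1 at 0.0559 and 0.0384 CPM, and Cx3cr1 at 1.72 and 1.77 CPM, and none of them passed the test. By the study's cutoffs 1 of the 9 was higher, Ccr7 (against 2.58% of all genes). With them 3 were lower, Ccr10, Cxcr2 and Xcr1 (against 4.37%). Of the listed atypical receptors, which do not signal through G proteins, 4 were tested and 1 rose, a share of 25% beside 24.1% over all genes. Ccrl2 went from 13.4 ± 0.564 to 18.7 ± 0.218 CPM (SD, n = 3 each, log2 fold change 0.48, adjusted p = 3.47e-05). Ackr2, Ackr3 and Ackr4 stayed under 1 CPM in both groups.

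Of the 12 tested ligands of the 9 receptors, 2 rose and 1 fell, a share of 25% beside 24.1% over all genes. Ccl22, a ligand of CCR4, went from 0.902 ± 0.197 to 1.87 ± 0.271 CPM (SD, n = 3 each, log2 fold change 1.09, adjusted p = 0.00108). Ccl20, the ligand of CCR6, went from 0.619 ± 0.0368 to 1.20 ± 0.185 CPM (SD, n = 3 each, log2 fold change 0.95, adjusted p = 0.00478). Ccl2, the ligand of CCR2, fell from 1.04 ± 0.427 to 0.160 ± 0.0768 CPM (SD, n = 3 each, log2 fold change -2.75, adjusted p = 0.000291), beside the fall of the monocyte markers. Cxcl10 was at 14.9 ± 1.04 and 15.9 ± 0.117 CPM (SD, n = 3 each, adjusted p = 0.296), and Ccl25, Ccl1, Cxcl16, Cxcl9, Cxcl12, Cxcl13, Ccl8 and Ccl17 did not pass the test. Of 11 other chemokines tested, Xcl1 rose (log2 fold change 0.90) and Ccl3, Ccl4, Ccl6, Ccl9 and Cxcl2 fell (54.5%, beside 24.1%). Ccl3 had a log2 fold change of -1.96 (adjusted p = 7.29e-06) and Ccl9 of -1.98 (adjusted p = 0.000101), beside a fall of 9 of the 10 neutrophil markers (against 12.1% of all genes). The part of other cells in the ligand values was not tested.

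The same was asked of genes that act below the receptors. Of 19 G protein subunits and effectors 1 rose and 4 fell, a share of 26.3% beside 24.1% over all genes and 31.8% over those with an average log2 CPM of 1 or more. The median log2 fold change of these 19 was -0.077, against -0.0042 over all tested genes. Gnai2, the main inhibitory alpha subunit of lymphocytes, fell by 0.096 on the log2 scale (adjusted p = 0.0496) and Pik3cg, the catalytic subunit of PI3K gamma, by 0.21 (adjusted p = 0.0181). Gng12 rose by 0.27 (adjusted p = 0.00316), and Gnao1, at 0.507 CPM in WT, fell by 1.37 (adjusted p = 0.0292). The Gnao1 libraries overlapped, with WT replicate 3 at 0.208 CPM and KO replicates 1 to 3 at 0.219, 0.159 and 0.249 CPM. Of 14 kinases, arrestins and RGS proteins that end the signal, 2 rose and 3 fell (35.7%, beside the same 24.1% and 31.8%). Rgs2 went from 158 ± 4.0 to 267 ± 2.42 CPM (SD, n = 3 each, log2 fold change 0.76, adjusted p = 2.99e-09) and Rgs16 rose by 0.38 (adjusted p = 4.77e-06), whereas Grk3 fell by 0.54 (adjusted p = 0.0324). Of 26 genes that turn the signal into adhesion and movement, 2 rose and 8 fell (38.5%, beside 24.1% and 31.8%, median log2 fold change -0.056). Rapgef1 and Rap1b, of the Rap1 pathway that switches on integrins, rose by 0.23 and 0.16. Rasa3, which holds Rap1 and Ras in check, fell by 0.28 (adjusted p = 3.61e-05), and Apbb1ip, the Rap1 effector, by 0.19 (adjusted p = 0.00122). Dock2 and Rac2, which push the front of a moving lymphocyte, fell by 0.15 and 0.17.

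**Figure D5:**
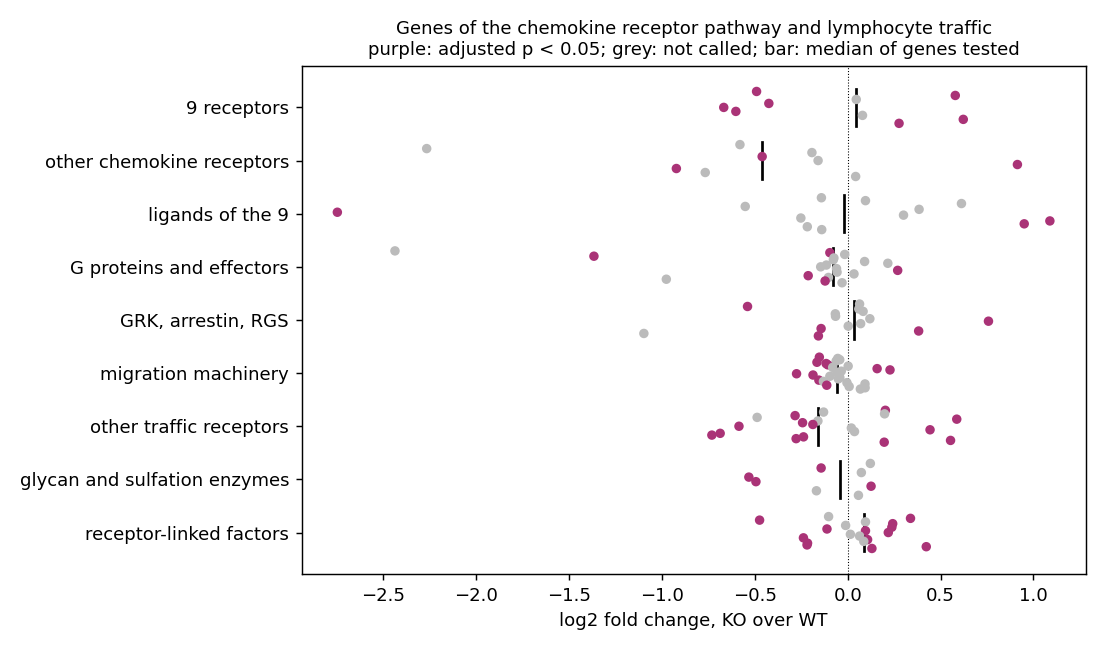
Log2 fold change, KO over WT, of each tested gene in 9 lists, with purple for an adjusted p under 0.05, grey for the others and a black bar for the list's median. The 9 receptors spread from -0.67 to 0.62, and the median of the migration machinery is -0.056.

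Other receptors and molecules of lymphocyte traffic changed in both directions, with 5 of 19 higher and 8 lower (68.4%, beside 24.1% over all genes and 31.8% over those with an average log2 CPM of 1 or more). Gpr183, an oxysterol receptor that positions cells at the edge of follicles, rose from 46.2 ± 1.83 to 69.4 ± 3.57 CPM (SD, n = 3 each, log2 fold change 0.59, adjusted p = 1.11e-06). Cd69, which removes the exit receptor S1PR1 from the surface, rose by 0.55 (adjusted p = 1.33e-07), and S1pr1 itself rose by 0.20 (adjusted p = 0.000549). Ltb4r1, the leukotriene B4 receptor, fell by 0.69 (adjusted p = 0.000101), and Ptgdr2, the prostaglandin D2 receptor, fell by 0.73 (adjusted p = 0.0292). Of 8 enzymes that modify receptors or selectin ligands 3 fell, Fut7, Gcnt1 and Tpst2, and St3gal4 rose by 0.13 (50% in all, beside the same 24.1% and 31.8%). Of 19 transcription factors known to act on these receptors or to mark cells that carry them, 8 rose and 5 fell (68.4%, beside 24.1% and 31.8%). The largest rises were those of Ahr (0.42) and Bcl6 (0.34), and Id3 fell by 0.24. Gata3, tied to Ccr4 and Ccr8, was at 142 ± 9.01 and 152 ± 4.14 CPM (SD, n = 3 each, adjusted p = 0.143), and Irf4, a factor of effector Tregs, rose by 0.24 (adjusted p = 0.000288).

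The genes whose log2 CPM went most closely with Ccr8 over the 6 libraries were Hlcs (Pearson's r = 0.998), Rpl27a (0.998) and Dglucy (0.998), and 85 of the 11075 candidates had an r of at least 0.99. With Ccr2 they were Rbm12b1 (0.999), Glud1 (0.999) and Glrx (0.998), with 59 at 0.99 or more. These are descriptions over 6 libraries that share their group difference.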

How the data were processed

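RNA of CD4+CD25+ splenic Tregs from 3 WT and 3 KO libraries was analyzed. The authors deposited a table of raw counts, 1 row per gene symbol, with no normalization. The submitters' processing notes name mm10, HISAT2 and DESeq2; the counting tool, its annotation and its strand setting are not given in the sources used here. Reads of overlapping genes on opposite strands can therefore not be told apart, and low counts were rarer than single fragments would give (620 entries of 1, 2579 entries of 4), so no counting interval is given. Of 32285 rows 40 repeat a symbol, and of these the row of highest total count was used under the plain symbol.

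Groups and replicate numbers were taken from the labels. Replicates differed by more than sampling noise (chi-square per degree of freedom 11 to 49.2), so none was merged. In R 4.3.3, 17307 genes passed edgeR's (4.0.16) filterByExpr and were compared by its quasi-likelihood test (TMM, robust, legacy off) with Benjamini-Hochberg adjustment. The call threshold was an adjusted p of 0.05, and the study's cutoffs were a second rule. Standard errors were derived from the F statistic. CPM used TMM-scaled library sizes; log2 CPM had a prior count of 2. Positions, exon lengths and shared 50-base stretches came from GENCODE M21 (GRCm38); promoters came from RefSeq (GRCm38.p6) and matched 8 of the 9 receptors.

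The receptors and lists were chosen with earlier results of these data known. Named were the 9 receptors; from each list, genes called by the study's cutoffs, otherwise up to 2 of the largest rises and falls; other chemokine receptors, atypical receptors and ligands that passed the filter; neighbouring receptors; the genes most like Ccr8 and Ccr2; and Zfp335 and Xist. Y-linked genes, marker genes, overlapping genes, Gnai2, Dock2, Rac2, S1pr1, Tbx21, Gata3, Irf4, Gpr183 and Cd69 were also named for their role, with their values seen. Some genes that these rules name are not reported here. Alternatives were other scalings and filters, DESeq2 1.42.0, limma-voom (limma 3.58.1), edgeR's legacy method, a replicate block, leaving out each library, leaving out gene classes, thinned counts and GC or length trends. The fit was tested on simulated data.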

Additional observations from a re-analysis of the deposited data

How the results depend on the processing

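The calls of the 9 receptors (3 higher, 4 lower) were the same under all 20 alternative fits. With library size alone the whole table split into 1622 higher and 2575 lower genes, against 2082 and 2088. The study's cutoffs left 3 receptors and 1203 genes, and Cxcr3 (-0.49), Cxcr4 (0.58), Cxcr6 (-0.42) and Ccr9 (0.28) then missed the 1.5-fold limit.

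Leaving out 1 library gave 7 called receptors each time and 2740 to 4996 genes in all, with the lowest count without WT replicate 2. The log2 fold changes then ranged from -0.74 to -0.63 for Ccr2, -0.69 to -0.55 for Ccr4, 0.039 to 0.11 for Ccr6, 0.59 to 0.65 for Ccr8, 0.23 to 0.33 for Ccr9, -0.52 to -0.44 for Cxcr3, 0.56 to 0.61 for Cxcr4, 0.0080 to 0.070 for Cxcr5 and -0.49 to -0.37 for Cxcr6. The weakest call was that of Ccr9 without KO replicate 3 (adjusted p = 0.0428).

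Replicate numbers did not pair the libraries: same-numbered libraries deviated together with correlations of 0.0284, 0.00819 and 0.0326. With the replicate block 7 receptors and 4227 genes were called.

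Ranking by CPM alone moved 5 receptors in WT and 7 in KO. Using the longest transcript moved 0 in WT and 3 in KO (Cxcr3, Ccr6 and Ccr4). With 3 libraries per group no exact test can go under p = 0.1.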
